A study of Mus musculus with 12 samples.

Results

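The loci of 8 genes that write, maintain or remove DNA methylation were examined, namely Tet1, Tet2, Tet3, Dnmt1, Dnmt3a, Dnmt3b, Dnmt3l and Uhrf1, out of 21897 protein-coding genes. Each locus was taken as the annotated gene body (GENCODE M21, GRCm38) extended by 20 kb on each side, which gave windows of 60166 to 148437 bases. These windows held 158 of the 273256 intervals obtained by merging the peaks of all groups, and 5 of those 158 were among the 2018 intervals for which the authors deposited read counts because they called them different between Zfp266 KO and control cells. Chromatin accessibility had been measured by Omni-ATAC-seq, in which a transposase cuts and tags open DNA, in 12 libraries of 50000 mouse cells, 3 in each of 4 groups. The cells were passage P2 fibroblasts of strain 129 derived from E12.5 embryos. Their line carried Cas9 together with a doxycycline-inducible cassette of the reprogramming factors (OSKM: OCT4, SOX2, KLF4 and MYC). MEF control (genotype wild type) and MEF KO cells were fibroblasts that received a non-targeting guide RNA or a guide RNA against Zfp266, a KRAB zinc finger gene, and stayed in fibroblast medium until 96 hours after transduction. Reprogramming control and reprogramming KO cells received the same guides and were moved after 24 hours to embryonic stem cell medium that held vitamin C at 10 µg/ml and doxycycline at 300 ng/ml, so that they were harvested at the same age after 72 hours of factor induction. The KO cells were edited pools and not a clone, the fibroblasts came from chimeric embryos of a single embryonic stem cell line, and all cells were sorted, in reprogramming for the reporter of the induced cassette. Chimeric embryos also hold cells of the host embryo, and their share in the MEF libraries is not stated. The reprogramming cells had also been plated among wild-type 129 fibroblasts, per the study's methods. The factors, the medium, vitamin C, the co-culture and the sorted reporter therefore changed together between MEF and reprogramming and cannot be told apart.

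DNA methylation in mammals is laid down at CpG sites by the methyltransferases DNMT3A and DNMT3B, helped by DNMT3L, a relative without catalytic activity of its own. DNMT1 copies the marks after replication, and UHRF1 brings it to the newly copied DNA. The dioxygenases TET1, TET2 and TET3 oxidise the methyl group and so start its removal, a reaction for which vitamin C is a known helper, and pluripotency genes that are methylated in fibroblasts lose the mark in iPSC generation. Accessibility at a gene locus is neither the expression of the gene nor the methylation of the DNA, and neither of those was measured in these libraries.

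The sequences below were taken from the GRCm38.p6 reference (C57BL/6J, so not the 129 alleles of the cells) and show what lay inside 3 of the intervals on which the results turn. The first is a B1 element, a short interspersed repeat, from an intron of Tet2, read on the strand of the element. Capitals in it mark strings of the B1 consensus (8 strings were searched, TTTAATCCC, GAGGCAGAG, GCAGGCGGA, GAGTTCGAG, AGCCTGGTC, GAGTTCCAG, CAGGGCTAC and AGAAACCCT) and the KLF strings GGGTGTGG and GGGCGTGG.
Tet2 intron, chr3:133533330-133533486, minus strand: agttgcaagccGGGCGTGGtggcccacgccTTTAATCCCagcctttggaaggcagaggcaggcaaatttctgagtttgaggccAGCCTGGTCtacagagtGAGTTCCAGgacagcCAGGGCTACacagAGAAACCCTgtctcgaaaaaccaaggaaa
The Tet2 element held 5 B1 strings in order and a GGGCGTGG in the head of the repeat. Below, the interval in a Tet1 intron is shown between a SOX string (ACAATGG, here as its complement CCATTGT) and an AP-1 string (TGACTCA), and the last sequence is the centre of the interval at Tet2 with the highest peak in reprogramming, with the SOX string ACAAAGG in capitals.
Tet1 intron, chr10:62851243-62851480, minus strand: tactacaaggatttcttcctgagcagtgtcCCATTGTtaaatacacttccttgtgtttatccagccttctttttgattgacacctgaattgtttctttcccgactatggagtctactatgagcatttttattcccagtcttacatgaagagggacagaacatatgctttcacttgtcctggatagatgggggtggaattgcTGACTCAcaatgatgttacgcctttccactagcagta
Tet2 gained interval, chr3:133524635-133524834, minus strand: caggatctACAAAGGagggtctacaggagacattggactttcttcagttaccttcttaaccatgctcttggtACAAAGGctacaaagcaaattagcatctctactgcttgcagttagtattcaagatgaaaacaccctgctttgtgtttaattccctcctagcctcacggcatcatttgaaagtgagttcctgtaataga

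The depth behind the counts is known only at the listed intervals, where the libraries held 33936 to 86490 reads in MEF and 141616 to 324141 reads in reprogramming. Peaks had been called once on the merged replicates of each group, so a peak's fold enrichment over background has no replicate error and was not tested. Start site peaks were present at 10 of 10 fibroblast markers in every group, with folds of 2.03 to 3.83 in MEF control and 1.60 to 4.52 in reprogramming control. Of 8 pluripotency markers 5 had one in each group, but not the same 5, since Pou5f1 had a peak in MEF only (2.23 in control), Zfp42 in reprogramming only (8.76 and 8.95 in control and KO), and Nanog and Dppa5a in no group. Among 4 markers of other embryonic cells 1 (Tubb3) did, with Ptprc, Pecam1 and Alb at none. Of 3 epithelial markers Krt8 had a start site peak in reprogramming only (2.55 and 2.45 in control and KO). Cdh1 and Epcam had one in every group, with 4.65 and 3.94 in MEF control and 2.78 and 3.33 in reprogramming control. The start site of Zfp266 had a peak of fold 5.46 and 5.08 in the MEF groups (control first, as in all pairs below) and of 5.03 and 4.52 in the reprogramming groups, which does not check the knockout because the guide edits the sequence and not its accessibility.

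The first comparison asked where loss of Zfp266 changed accessibility at these loci. In reprogramming cells 3 member intervals were more open in KO, in introns of Tet1 and Tet2 and over an internal start site of Dnmt3l, and 1 at the 3′ end of Dnmt3a was less open. These counts hold under the authors' size factors. With libraries scaled on the listed intervals, only Tet2 stayed called more open and Dnmt3a less open. Over the whole list 1522 calls more open and 86 less open then became 185 and 288 (TMM) or 379 and 141 (column totals). In MEF 1 interval was more open in KO, in an intron of Dnmt3l. No interval at Tet3, Dnmt1, Dnmt3b or Uhrf1 was listed, and no member interval was listed in both contexts, so the difference in KO effect between contexts could not be tested here. Counts were compared by edgeR's quasi-likelihood test (two-sided, Benjamini-Hochberg over 273256 intervals), and because the authors chose the listed intervals on the same libraries this retest is not independent evidence. The share of all intervals called more open was 0.175% in MEF and 0.557% in reprogramming, and 0.0315% were called less open in reprogramming, against 0.633%, 1.90% and 0.633% of the 158 member intervals. The member shares rest on 1, 3 and 1 intervals, and the members were chosen with earlier results of these data known. These shares are therefore no test of whether the loci differ from others. Where an interval is more open in these bulk samples, more open cells and more opening per cell cannot be told apart.

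Under the authors' size factors Tet2 had the largest KO effect of the members in reprogramming. When scaled on the listed intervals, the effect at Dnmt3a was larger (log2 fold change -1.66 or -1.39). The Tet2 interval lies in the first part of the gene (chr3:133532799-133534331, 11574 bases into the gene, intron) and contains the B1 element shown above in the orientation of the gene. Its normalised read counts were 80.4, 53.5 and 45.7 in control and 214.1, 188.2 and 214.3 in KO libraries of reprogramming cells. Every KO library stood above every control library, and the highest control value, in replicate 1, was still well under the lowest KO value. The means of 59.9 ± 18.2 and 206.0 ± 15 (SD, n = 3) differed by a fitted 3.42-fold (log2 fold change 1.77 ± 0.13 SE, adjusted p = 1.1e-28 by edgeR), and the log2 fold change was 0.80 or 1.06 when scaled on the listed intervals. In MEF the interval was closed, with a mean of 13.3 over the 6 MEF libraries and no peak in either MEF group, and its peak fold in reprogramming was 2.38 in control and 4.61 in KO cells. Of the 109 member intervals with a peak in both reprogramming groups, this one had the highest ratio of KO to control peak fold, 1.94.

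At Tet1 the KO difference was smaller and sat on an interval that was wide open in fibroblasts. The interval (chr10:62850869-62852161, intron) had normalised counts of 79.3, 81.7 and 84.8 in reprogramming control and of 138.1, 120.6 and 122.2 in KO, so the groups did not overlap. The mean over the 6 MEF libraries was 522, above each reprogramming library, and the peak folds were 6.06 and 4.93 in MEF and 2.98 and 3.99 in reprogramming. The interval was thus less open in reprogramming than in MEF, and under the authors' size factors its level in KO cells lay between control cells and MEF. The KO mean was 127.0 ± 9.70 against 81.9 ± 2.77 (SD, n = 3), a fitted 1.57-fold difference (log2 fold change 0.65 ± 0.14 SE, adjusted p = 0.00082 by edgeR), but the direction turned when libraries were scaled on the listed intervals themselves, and the adjusted p was 0.055 with DESeq2 and 0.13 without KO replicate 1. No B1 string was found in this interval.

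Dnmt3l had listed intervals in both contexts, at different places. The first (chr10:78054424-78056157) covers the annotated start of Dnmt3l-202, Dnmt3l-203, Dnmt3l-206 and Dnmt3l-207, 13343 bases into the gene, and holds near its end 5 B1 strings in order, in an intron and on the strand opposite to the gene. Its normalised counts were 64.8, 89.8 and 62.7 in reprogramming control and 119.8, 119.3 and 123.8 in KO. The KO libraries were close together and all above the controls, of which replicate 2 was the highest. Means of 72.4 ± 15.1 and 121.0 ± 2.47 (SD, n = 3) differed by a fitted 1.63-fold (log2 fold change 0.71 ± 0.14 SE, adjusted p = 0.00027 by edgeR), a direction that was also lost when scaled on the listed intervals. In MEF the mean over 6 libraries was 182, and the peak fold went from 5.51 in MEF control to 3.30 in reprogramming control and 3.53 in reprogramming KO. Under the authors' size factors the KO level lay between reprogramming control and MEF here too.

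The other Dnmt3l interval had a peak in KO fibroblasts alone among the 4 groups. It lies in an intron (chr10:78059316-78059971), 17696 bases into the gene, and its peak fold there was 2.87. Normalised counts were 17.3, 14.7 and 13.4 in MEF control and 63.9, 65.8 and 72.7 in MEF KO. This gap, a fitted 4.37-fold (means 15.1 ± 1.97 and 67.5 ± 4.61, SD, n = 3, log2 fold change 2.13 ± 0.21 SE, adjusted p = 2.8e-19 by edgeR, 1.08 or 1.23 on the log2 scale when scaled on the listed intervals), was far wider than the spread within either group. The mean over the 6 reprogramming libraries was 15.4, near the MEF control level.

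Dnmt3a had the only member interval that was less open in KO. It lies in the last exon (chr12:3913193-3914018), within the 3′ untranslated region, and had no peak in MEF, where the mean over 6 libraries was 16.1. In reprogramming control the normalised counts were 148.6, 164.2 and 134.5, and in KO they were 86.0, 103.3 and 93.7. All control libraries were above all KO libraries (means 149.0 ± 14.9 and 94.3 ± 8.69, SD, n = 3), and the fitted KO level was 0.623 of control (log2 fold change -0.68 ± 0.13 SE, adjusted p = 6.2e-05 by edgeR, and -1.66 or -1.39 when scaled on the listed intervals). Peak folds were 3.92 in control and 2.60 in KO, the lowest ratio (0.665) of the 109 member intervals with a peak in both reprogramming groups. No B1 string was found in it, and of the 86 listed intervals less open in KO in reprogramming 0 had a B1 element in the 1000 bases around their midpoint.

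**Figure D1:**
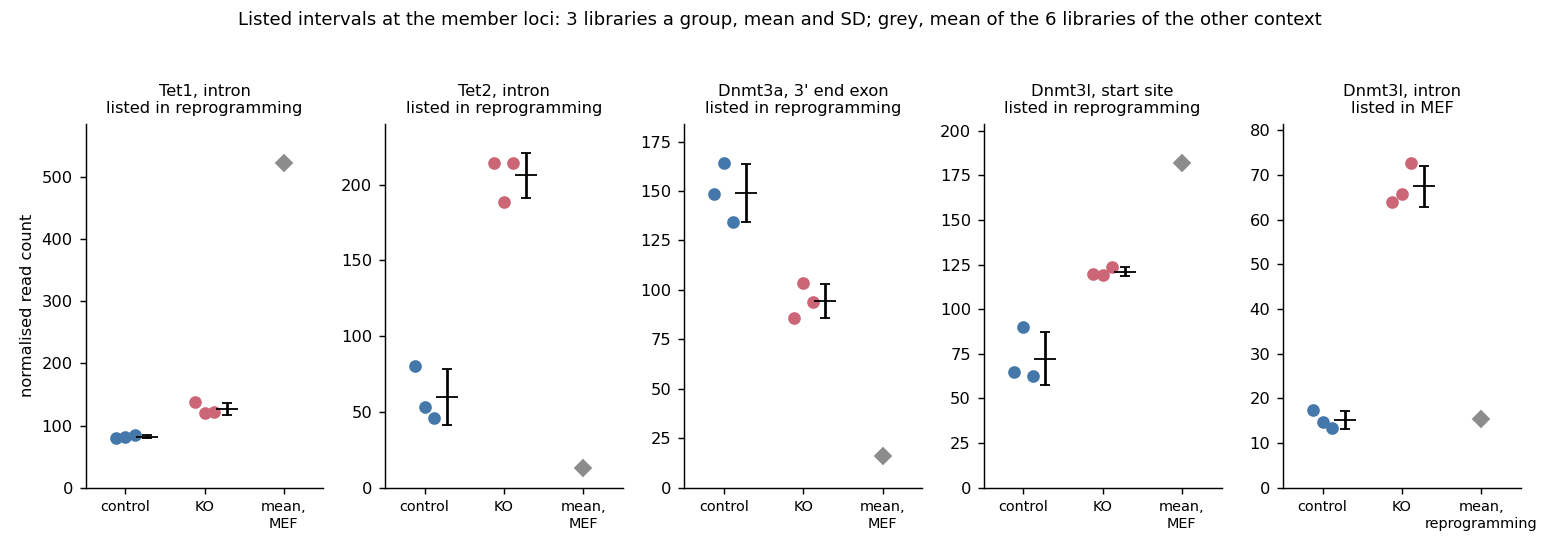
Normalised read counts (y axis) at the 5 listed member intervals, with a point for each of the 3 control and 3 KO libraries, black bars for the mean ± SD and a grey diamond for the mean of the 6 libraries of the other context. KO lies above control in 4 panels under the authors' size factors (in 2 of these, Tet1 and the Dnmt3l start site, the direction turned when scaled on the listed intervals) and below it at Dnmt3a, and the MEF mean is above both reprogramming groups at Tet1 (522) and the Dnmt3l start site (182).

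Counted by gene, 1 of the 8 had an interval more open in KO in MEF, 3 of 8 one more open in reprogramming (1 of 8, Tet2, when scaled on the listed intervals) and 1 of 8 one less open in reprogramming. Over all protein-coding genes these shares were 2.96%, 8.14% and 0.37%, with a median window of 57407 bases, shorter than any of the member windows, and a longer window has more room for an interval. The 8 genes were also chosen with earlier results of these data known. Outside the listed intervals no read counts were used, and KO and control could be set side by side there only by their peaks. In MEF 7 of the 158 member intervals had a peak in KO and none in control (3.65% of all intervals did) and 5 the reverse (4.79%). In reprogramming these were 15 (4.96%) and 9 (7.27%), and 5 and 7 with only peaks of a −log10 q of at least 5. The 15 were faint, with folds of 1.65 to 2.36 and a −log10 q of at least 5 in 2 of them, and 6 lay at Tet1, 3 at Dnmt3a and 3 at Dnmt3b. The 9 control peaks without a KO peak had folds of 1.62 to 2.15, and among them was the interval over the start of Dnmt1-202. At start sites with a peak in both KO and control the log2 ratios of KO to control peak fold were -0.29 to 0.02 in MEF and -0.17 to 0.13 in reprogramming over 12 intervals on coding starts in each context. These leave out starts with a peak in only 1 of the groups (in reprogramming Dnmt3a-210 and Dnmt1-202), and they include the Dnmt3l start site interval, whose read counts differed by a fitted 1.63-fold while its peak folds were 3.30 and 3.53.

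The next comparison set reprogramming control against MEF control. Every member had a start site peak in all 4 groups, and for each of the 8 the highest start site fold was lower in reprogramming control than in MEF control, with ratios from 0.563 to 0.826. At Tet3 and Dnmt3a the highest start differed between the groups, so their ratios (0.809 and 0.796) compare different starts, and the start of Tet3-201 taken alone was higher in reprogramming control. Among intervals on an annotated coding start with a peak in both, 9 of 11 member intervals were lower and 3 (27.3%) were lower by at least 1.5-fold. Over all genes the median ratio at such intervals was 0.845 and 18.2% were lower by that much, so the median start site was lower too. The share of all genes that were lower by any amount was not counted, so 8 of 8 does not set these genes apart. Each fold is measured against the background of its own group's merged library, and the part of the background in these ratios was not tested.

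Among the writers, Dnmt3b, a main de novo methyltransferase of the early embryo, had the lowest ratio where a peak had to cover the start (with peaks within 500 bases it was 0.642, above Dnmt3l at 0.599). Its start site fold was 6.44 and 6.21 in the MEF groups and 3.62 and 3.62 in the reprogramming groups, so both reprogramming groups lay under both MEF groups. Dnmt3l had 5.51, 4.85, 3.30 and 3.53 in the same order (ratio 0.599). Dnmt3a, the other de novo enzyme, had 3.91, 3.89, 3.20 and 2.91 at its distal start and 2.54, 2.48, 1.85 and 1.75 at the internal start of Dnmt3a-203 and Dnmt3a-205. A further start further along the gene, of Dnmt3a-210, had folds of 4.02 and 3.32 in MEF control and KO, no peak in reprogramming control and 2.11 in KO cells.

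The maintenance pair had ratios in the middle of this range. Dnmt1 had 5.44, 4.95, 4.10 and 3.97 at its main start (ratio 0.754), and the upstream start of Dnmt1-202 had a peak in reprogramming control alone (1.76). Uhrf1 had 4.46, 4.42, 3.20 and 2.85 (ratio 0.716). Neither gene had a listed interval.

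The TET genes did not share a single pattern at their starts. At Tet2 the starts of Tet2-201 to Tet2-205 fall in 1 interval, and its other annotated starts had no peak over them. The folds there were 4.23, 3.63, 3.13 and 3.41 in the same order (ratio 0.740). Tet1 had 7.53, 6.77, 6.22 and 5.97 at the start of the noncoding transcript Tet1-202 and 5.44, 5.42, 4.18 and 3.84 at the coding start of Tet1-207 and Tet1-210. The 2 coding starts with a peak further upstream went the other way (another between them had no peak over it), with 2.25, 1.85, 2.83 and 2.69 at Tet1-209, and with no MEF peak and folds of 2.90 and 2.77 in reprogramming at Tet1-208. At Tet3 the distal start of Tet3-203 went from 4.31 and 4.19 in MEF to 2.52 and 2.76, while the start of Tet3-201 had 3.17, 3.23, 3.49 and 3.17. In all, the 8 genes had 16 intervals over an own start, of which 12 had a peak in both control groups (10 of them lower in reprogramming), 3 were gained and 1 was lost.

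**Figure D2:**
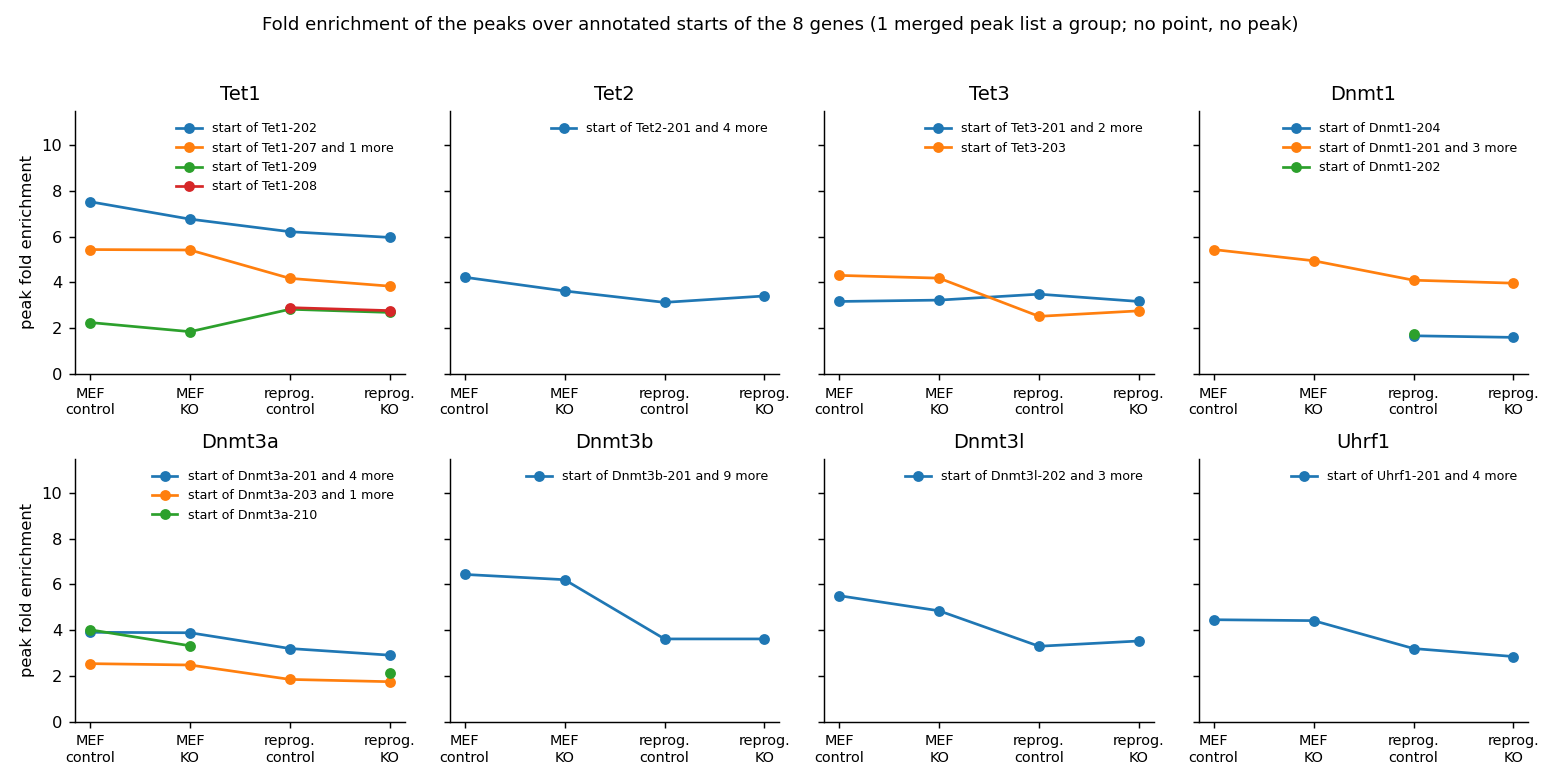
Peak fold enrichment (y axis) in the 4 groups (x axis) at each interval over an annotated start of the 8 genes, 1 line an interval, with no point where a group had no peak and no error because each group has 1 merged peak list. Most lines step down from MEF to reprogramming, most steeply at Dnmt3b (6.44 to 3.62), while Tet1-209 and Tet3-201 are higher in reprogramming control and Tet1-208 has a peak in reprogramming only.

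Away from start sites peaks were both gained and lost. Of the 158 member intervals 58 (36.7%) had a peak in reprogramming control and none in MEF control, beside 33.9% of all intervals, and 26 (16.5%) had lost theirs, beside 32.4%. With only peaks of a −log10 q of at least 5 the gained share was 20.3%, below the 25.0% of all intervals. In KO cells 58 were gained (32.1% of all intervals) and 22 lost (31.7%). Of the 58 gained in control cells 28 lay in introns, 18 in the flanks, 9 in exons and 3 within 1000 bases of a coding start, while of the 60 with a peak in both 11 lay at a coding start.

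With all peaks counted, Tet2 stood out among the loci, with 17 of its 25 intervals gained (68.0%) and 3 lost. Without it 41 of 133 member intervals were gained (30.8%). Of 11453 protein-coding genes with at least 10 intervals in their window 1.03% had a gained share as high, and the median was 30.8%. The 17 spread over the whole window, with 9 in introns, 4 in exons, 3 upstream and 1 downstream, and 15 of them also had a peak in reprogramming KO. Many were low, with folds of 1.52 to 6.39 (median 2.05) and a −log10 q of at least 5 in 8. At that cut 8 of the 25 were gained, beside 25.0% of all intervals, and the rank among genes was not taken again. The highest lies 20404 bases into the gene (chr3:133524173-133525297, intron), with folds of 6.39 in reprogramming control and 6.27 in KO, no peak in MEF, and the pair of ACAAAGG strings shown above. The next, upstream of the gene (chr3:133549446-133550241), had 3.80 and 3.33. The 3 MEF peaks lost at Tet2 all lay in introns, and the higher 2 had folds of 2.93 and 2.64 in MEF control.

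**Figure D3:**
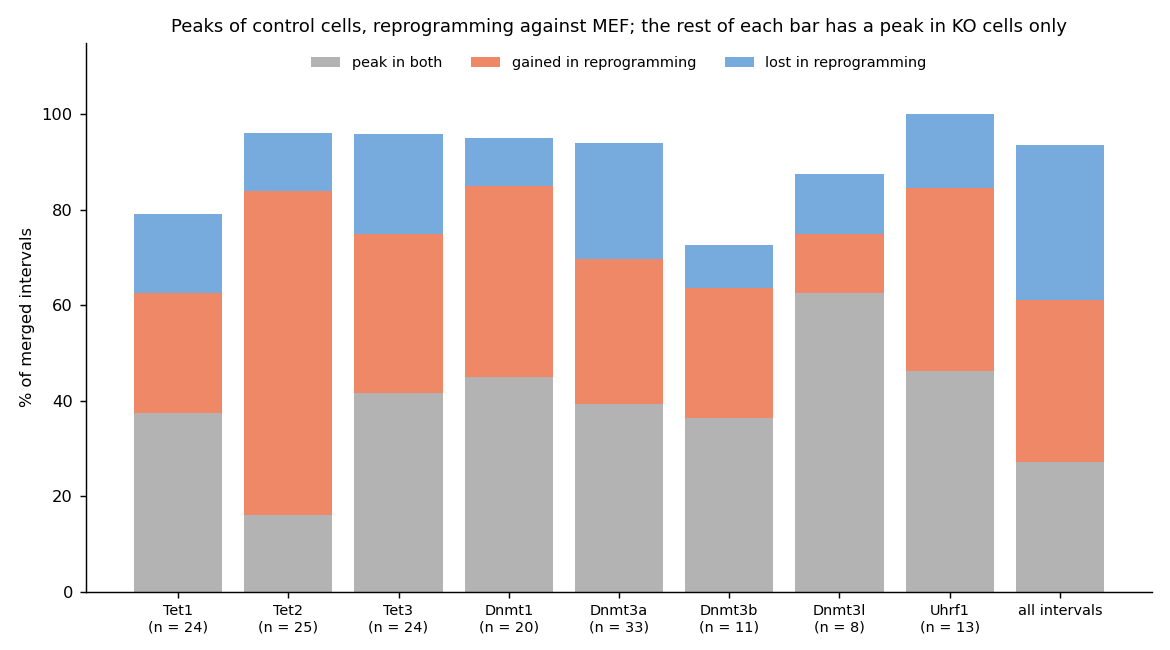
Share of the merged intervals at each locus (y axis, %) with a control peak in both MEF and reprogramming (grey), gained in reprogramming (orange) or lost in reprogramming (blue), with all 273256 intervals at the right. With all peaks counted, Tet2 has the largest gained share (68.0% of 25), while the members together (36.7%) are near the 33.9% of all intervals, and their lost share (16.5%) is below the 32.4% of all.

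Away from start sites, at Tet3 an intron gained a peak of fold 5.32 in reprogramming control and 4.77 in KO (chr6:83394755-83396485) and another intron lost a peak of 5.18 and 5.09 in the MEF groups (chr6:83423524-83424478), at similar heights. At Dnmt3b the intron peak chr2:153680725-153682112 was gained with 4.77 and 4.50, and at Dnmt3a the exon peak chr12:3836964-3837964 with 4.08 and 3.87. The highest lost there were 2.75 in an intron of Dnmt3b and 3.54 near a coding start of Dnmt3a (MEF control). Tet1 gained 3.72 and 3.82 in its downstream flank (chr10:62786644-62787318) and lost 4.13 and 3.83 in an exon (chr10:62810119-62810420). Uhrf1 gained 3.48 and 3.82 in an intron (chr17:56316265-56317489) and lost 2.50 in a flank. Dnmt1 gained no peak above 2.60 and lost 3.18 just upstream of the gene (chr9:20961279-20962403), where KO cells kept a peak of 2.36 in reprogramming. Dnmt3l gained 2.79 and lost 2.83, both in the flanks. None of the gained intervals named here apart from those at Tet2 (chr3:133532799-133534331) and Dnmt3a (chr12:3913193-3914018) was listed as different in KO.

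Where a peak was present in both control groups, 43 of 60 member intervals had a lower fold in reprogramming, with a median log2 ratio of -0.37 beside -0.22 over all intervals. The share of all intervals with a lower fold was not counted. Of the 60, 18 (30.0%) were lower by at least 1.5-fold beside 24.9% of all, and 3 (5.0%) were higher by that much beside 9.66% of all. The lowest ratios were at introns of Dnmt3a, 0.394 (5.61 to 2.21, chr12:3842910-3843781) and 0.403 (4.34 to 1.75, chr12:3887328-3890005), followed by the listed Tet1 interval at 0.491. The 3 that were higher lay in introns of Tet3 (2.68 to 4.75, ratio 1.77) and Tet1 (3.46 to 5.51, ratio 1.59) and downstream of Dnmt3b (2.93 to 4.42, ratio 1.51). Of the 158 intervals 11 covered the start of another gene, such as Ppan, Commd7, Bola3 and Icosl, all 4 of which were among the 18 lower ones, so a peak in a window need not belong to the member.

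**Figure D4:**
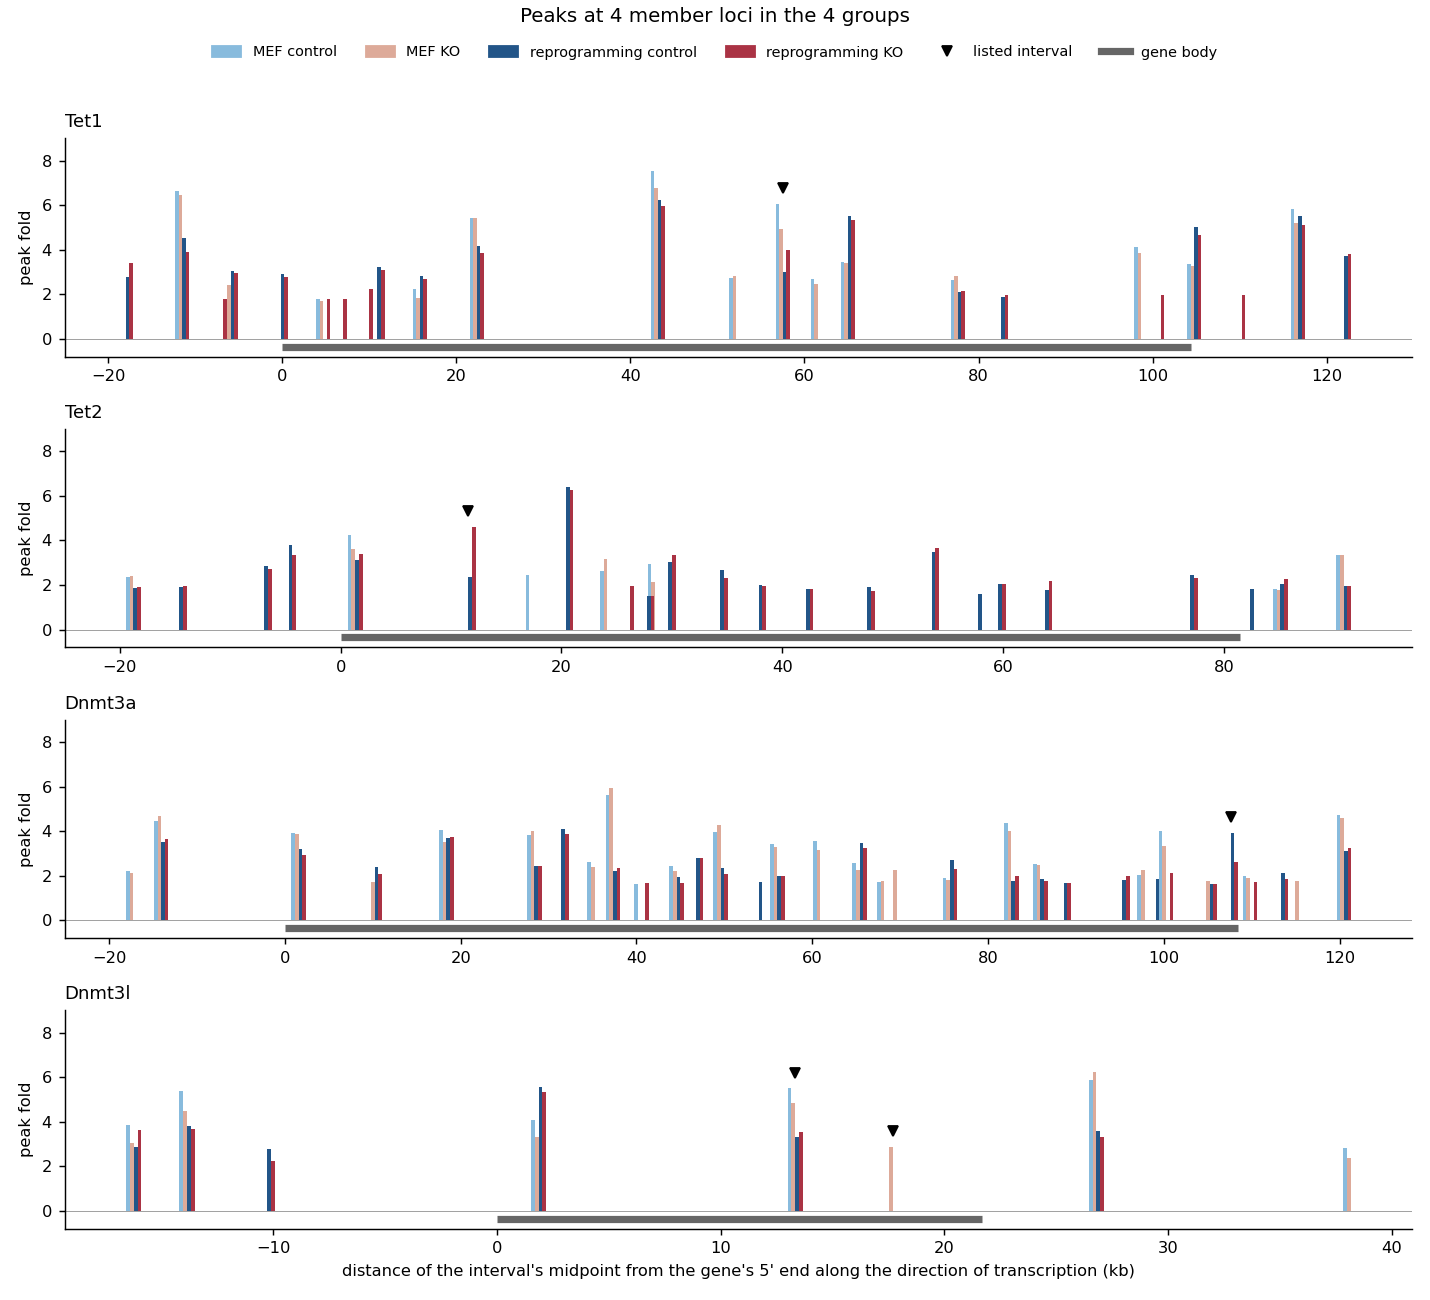
Peak fold enrichment (y axis) of each interval at Tet1, Tet2, Dnmt3a and Dnmt3l against the distance of its midpoint from the gene's 5′ end (x axis, kb, in the direction of transcription), with bars for the 4 groups set side by side, a grey bar for the gene body and triangles over the listed intervals. At Tet2 most bars are from the reprogramming groups, at Tet1 the listed interval is highest in MEF control (6.06), and at Dnmt3a the listed interval near the gene's end has no MEF bars.

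Other genes of the same pathway were read as a list of 28, among them base excision repair enzymes, methyl-CpG readers, UHRF2, and the enzymes and transporters that supply 2-oxoglutarate and vitamin C. Of these 25 had a start site peak in both control groups, and Dnmt3c and Dppa3, both known from germ cells, had none in any group. Of 356 intervals in their windows 28.1% were gained and 18.8% lost, both below the 33.9% and 32.4% of all intervals.

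The 28 genes, too, were chosen with earlier results of these data known. In reprogramming 6 of the 28 genes had an interval that was more open in KO (8.14% of all protein-coding genes did) and 0 one that was less open (0.37%), and in MEF 1 had one more open (2.96%). These were Idh1, which makes 2-oxoglutarate in the cytosol, Trdmt1, a tRNA methyltransferase of the DNMT family, Slc23a2, a vitamin C transporter, Dnmt3c, a germ line relative of Dnmt3b, Apobec1, a cytidine deaminase, and Trim28, the corepressor that KRAB zinc finger proteins bind. In MEF it was Idh2, the mitochondrial partner of Idh1. The Slc23a2 interval (chr2:132161967-132162387) had normalised counts of 31.3, 29.9 and 22.2 in control and 51.2, 84.9 and 49.2 in KO, a fitted 2.18-fold difference (adjusted p = 3.2e-05 by edgeR), with a mean of 1.73 over the MEF libraries. At Trim28 the counts were 64.8, 60.8 and 67.9 against 106.1, 145.2 and 106.4, a fitted 1.85-fold (adjusted p = 1.9e-06 by edgeR), but the log2 fold change of 0.89 was -0.08 or 0.18 when scaled on the listed intervals, by TMM or by column totals. The largest was at Apobec1, with 22.3, 10.9 and 7.8 against 58.6, 59.0 and 66.7, a fitted 4.39-fold (adjusted p = 2e-13 by edgeR). The fitted folds of the 8 intervals of these genes ran from 1.85 to 4.39. The authors had chosen the list on these libraries, so gaps between the groups at these intervals are no separate result. When scaled on the listed intervals 2 (TMM) or 3 (column totals) of the 8 were called, among them Apobec1 and Trdmt1, and Slc23a2 was not (0.15 or 0.42 on the log2 scale). At the start site of Slc23a2 the peak fold was 5.15 in MEF control and 2.43 in reprogramming control.

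The member intervals were also described by sequence strings. Members and strings were chosen with earlier results of these data known, so the shares below are a description and not an independent check. A B1 element, taken as at least 3 of the 8 strings in order on 1 strand within 200 bases, was present in the 1000 bases around the midpoint of 38 of 158 member intervals (24.1%), against 6.45% of the 186648 intervals near any protein-coding gene and 51.5% of the intervals listed as more open in KO. The share was above 6.45% at each locus, from 9.09% at Dnmt3b (1 of 11 intervals) to 46.2% at Uhrf1 (6 of 13), which had no listed interval. Several of these shares rest on few intervals, such as 3 of 8 at Dnmt3l, 3 of 20 at Dnmt1 and 3 of 24 at Tet3. Of the 3 listed member intervals with B1 strings, that at Tet2 has its element within these 1000 bases, and the repeat of the Dnmt3l start site interval lies nearer to its edge. AP-1 strings (TGACTCA or its complement TGAGTCA) were present at 12.1% of the 58 gained and 42.3% of the 26 lost member intervals, and over all intervals at 21.0% of those gained and 38.6% of those lost. SOX strings (ACAATGG or ACAAAGG, both strands) were at 39.7% of the gained and 34.6% of the lost, beside 41.2% and 30.4% over all. The OCT string ATTTGCAT was at 3 of the gained (5.17%) and 1 of the lost member intervals (3.85%), beside 7.17% and 6.40% over all. KLF strings were at 12 (20.7%) and 4 (15.4%), beside 17.5% and 7.52%.

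RefSeq promoters (250 bases before to 50 after a start) were found for all 8 genes, 15 in number. They held a median of 18 CpG sites, beside 7 over all 32851 promoters, and the most were at Tet2 (57), Dnmt3a (46 and 47) and Dnmt1 and Uhrf1 (33 each). The Dnmt3l promoter inside the listed interval held 3. Of the 15 promoters 2 had a KLF string, 1 a SOX string and 0 an AP-1, OCT or B1 match, beside 8.58%, 9.28%, 5.20%, 1.74% and 0.131% of all promoters in that order. These matches describe letters in a window and not bound sites.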

How the data were processed

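Omni-ATAC-seq was performed on 12 libraries, which were assigned to groups and numbered as their titles state. Per the submitters' processing notes, reads were aligned with BWA to GRCm38.p6, and the tools named also include FastQC, cutadapt, Picard, SAMtools, bedtools, MACS2 and DESeq2. The authors called broad peaks with MACS2 at an FDR of 0.1 on the merged replicates of each group. The deposited peak lists give each peak's fold enrichment, a ratio, and its −log10 q. The authors counted reads over the union of peaks and deposited raw counts and the same counts divided by a size factor (normalised signal) only for the 480 MEF and 1608 reprogramming intervals past their threshold, with their fold change, its error, a Wald statistic and p-values, which were not used. The deposited mean over 12 libraries gave the other context's mean by subtraction, and it equalled the recomputed mean at the 70 intervals listed in both tables.

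Here the 661623 peaks were merged where they overlapped or touched. A peak in 1 group and none in the other was counted as gained or lost. Listed counts were retested with edgeR 4.0.16 in R 4.3.3 (quasi-likelihood, adjusted p under 0.05, recovered size factors of 0.63 to 1.46, unlisted intervals ranked behind), and DESeq2 1.42.0 was an alternative. The test was tried on simulated counts first. Replicates of a group were not copies of each other (chi-square per degree of freedom from 1.13 to 1.69), which does not show that cultures were separate, so p-values may measure technical spread. Named were all listed intervals, start site peaks, and of the other peaks the 2 highest gained and lost ones of each member, of which the text gives the highest. The members, gene lists and strings were chosen with earlier results of these data known. Alternatives were scalings, a filter of 10 reads in 3 libraries, a replicate block, left-out replicates, windows of 0, 5 and 50 kb and stricter peak rules. Some items are not reported here.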

Additional observations from a re-analysis of the deposited data

How the results depend on the processing

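Scaling on the listed intervals themselves, most of which the authors called more open, forces their centre towards 0. With TMM factors or column totals, the median log2 fold change of the list went from 0.99 to 0.02 or 0.29 in reprogramming (from 1.08 to 0.03 or 0.18 in MEF), and the share of calls that were more open from 94.7% to 39.1% or 72.9% (99.8% to 46.3% or 67.0% in MEF). Under both, 2 of the 4 member intervals in reprogramming were called in place of 4. The Tet1 interval reversed to a log2 fold change of -0.32 and -0.06, and the Dnmt3l start site interval to -0.27 and -0.0034, each with an adjusted p of 1. The Tet2 interval stayed called at 0.80 and 1.06, that of Dnmt3a at -1.66 and -1.39, and the MEF interval of Dnmt3l at 1.08 and 1.23. The list-wide shift was -0.97 and -0.71 in reprogramming. Tet1 was also not called with DESeq2 (adjusted p = 0.055) or without reprogramming KO replicate 1 (0.13), and its log2 fold change ranged from 0.57 to 0.69 over the fits that left out a library. Leaving out a library gave 3 to 4 calls in reprogramming and 1 to 1 in MEF. Replicate numbers were not taken as pairs in the main test. Correlations of same-numbered deviations were low but all above 0, at 0.22, 0.14 and 0.04 in MEF and 0.03, 0.1 and 0.08 in reprogramming. In reprogramming every library, and in MEF every library but KO replicate 3, correlated best with its own number. This is a hint of pairing from the data and not the design. The replicate block left 1 call in MEF and 4 in reprogramming. With windows of 50 kb, 6 listed intervals were called in reprogramming in place of 4, and 1 in MEF. The interval chr2:153708041-153708254, given above under Dnmt3c, lies just beyond the 20 kb window of Dnmt3b. The test of the KO effect between contexts and its alternatives were not run, because no member interval is listed in both tables. Among peaks, with a −log10 q of at least 5 the counts for reprogramming control against MEF control were 32 gained (20.3% beside 25.0% of all intervals, so below and no longer above the share of all), for KO cells 29 (18.4% beside 23.3%), for KO against control in MEF 2 gained and 2 lost (1.27% each beside 2.86% and 2.74%), and in reprogramming 5 gained and 7 lost (3.16% and 4.43% beside 2.48% and 4.55%), in place of 15 and 9 (9.49% and 5.70% beside 4.96% and 7.27%). Where peaks had to share 50% of both lengths, lost intervals in reprogramming control numbered 45 (28.5% beside 43.0% of all), in reprogramming KO 40 (25.3% beside 42.2%), and KO against control gave 14 gained and 12 lost in MEF (8.86% and 7.59% beside 6.85% and 8.0%) and 34 and 28 in reprogramming (21.5% and 17.7% beside 9.48% and 11.8%), intervals without such a pair being counted as both. With windows of 50 kb, 247 intervals gave 89 gained and 42 lost in control cells (36.0% and 17.0%), 90 and 37 in KO cells (36.4% and 15%), 13 and 8 for KO against control in MEF (5.26% and 3.24%), and 26 and 15 in reprogramming (10.5% and 6.07%), to be set beside the same shares of all intervals as in the report. All 8 start site folds stayed lower in reprogramming control with coding starts only (Tet1 0.769) or with peaks within 500 bases (Dnmt3b 0.642, above Dnmt3l at 0.599). The unlisted intervals have no counts here, which limits what can be said of Tet3, Dnmt1, Dnmt3b and Uhrf1 in KO.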
